A study of Danio rerio with 6 samples.

Results

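Intestine nuclei were the nuclei richest in 7 transcripts of the gut lining, taken from a single-nucleus RNA-seq (snRNA-seq) library of zebrafish with melanoma. Barcodes entered if they held 1000 to 1000000 unique molecular identifiers (UMIs, each counted as 1 captured transcript) from 200 or more genes, with no more than 20% of them mitochondrial. Intestine nuclei were chosen by the share of their gene UMIs in chia.1, chia.2, chia.3, tcnl, slc13a2, fabp2 and tm4sf4, with at least 3 of the 7 detected, and the 600 highest of 11236 nuclei were taken. The other 10636 nuclei served as the comparison. The ranking used the nuclei's own transcripts, so their differences from other nuclei are described here and were not tested.

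The nuclei came from 3 adult casper fish with melanomas. All carried BRAF V600E driven by the mitfa promoter on a p53-/-; mitfa-/- background, and had been injected with mitfa-MITF and mitfa-GFP plasmids, so that the transgenes mark the pigment lineage. Head and tail were removed, tumor and surrounding tissue were homogenized together, nuclei were sorted into GFP-positive and GFP-negative fractions in about equal numbers, and all were run in 1 droplet reaction. Hashtags named for fish 1, 2 or 3 and for the sort fraction were counted in the same table, and a nucleus with 1 hashtag above 2 times its median count was assigned to that fish and fraction. No fish without a tumor was included, and the intestine was not dissected separately.

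The lining of the fish gut is made mostly of enterocytes, absorptive cells with a brush border of microvilli that carries peptidases and transporters for amino acids, peptides, sugars and phosphate. Enterocytes take up fatty acids, re-esterify them and export them in particles coated by apolipoproteins. In zebrafish the proximal gut is known for lipid absorption, a more distal segment for bile acid recovery and for lysosome-rich enterocytes that internalize and degrade protein, and goblet, enteroendocrine and BEST4/OTOP2 cells are scattered between them.

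The intestine nuclei had a median of 4027 UMIs (range 1006 to 59820) and 1866 genes, against 2478 UMIs and 1148 genes in the other nuclei. Mitochondrial UMIs had a median of 0.928% in intestine nuclei and 0.445% in the others. One hashtag was present in 471 of the 600, which gave 227 nuclei to fish 1, 85 to fish 2 and 159 to fish 3. These were 7.22% of the singly tagged nuclei of fish 1 (95% Clopper-Pearson interval 6.34 to 8.18), 3.38% in fish 2 (2.71 to 4.16) and 5.61% in fish 3 (4.79 to 6.52). The interval of fish 2 lay below those of fish 1 and 3, which overlapped. Intervals cover counting error only. RNA outside nuclei was read from 1559133 barcodes of 1 to 50 UMIs, which held 2738617 gene UMIs. Of the UMIs of the other nuclei, 58.1% came from 734 nuclei of very high RNA content that carried oocyte genes (cluster 3 of the clustering described further on, 6.90% of the other nuclei). List ratios or counts against the other nuclei are therefore also given without cluster 3, a comparison added after the data had been seen.

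The 7 genes of the rule together made up 2.31% of the UMIs of intestine nuclei, 0.0257% of those of other nuclei and 0.121% of free RNA. Per nucleus, the share ran from 0.971% through a median of 2.13% to 6.05%. All 7 genes were detected in 274 nuclei, 6 in 194, 5 in 89, 4 in 38 and 3 in 5. Shares fell without a step across the limit, from 0.9707% in the last nucleus taken to 0.9695% in the first left out and 0.9494% at rank 610, and reached 0.313% at rank 1000.

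Of the 7 genes, chia.1, chia.2 and chia.3, encode chitinases of the acidic mammalian chitinase family, which cleave the chitin of crustacean and insect prey. chia.1 was at 6677, 2639 and 5338 CPM (UMIs per 1000000 gene UMIs) in fish 1, 2 and 3, and 5438 CPM over all intestine nuclei against 50.5 CPM in other nuclei. chia.2 was at 5395, 6239 and 4856 CPM, and chia.3 at 3624, 313 and 939 CPM. Levels of chia.2 were thus alike in the 3 fish, whereas chia.3 was lowest in fish 2 and highest in fish 1. tcnl, a transcobalamin-like carrier of vitamin B12, was at 3279.6, 1612 and 2498 CPM. slc13a2, a sodium-coupled carrier of dicarboxylates and citrate, was at 2204, 2243 and 2587 CPM. fabp2, the intestinal fatty acid binding protein, was at 4121, 3015 and 3155 CPM, and tm4sf4, a small tetraspan membrane protein, at 2296, 2015 and 1872 CPM. Every one of the 7 was lower in free RNA than in the intestine nuclei of any fish, by the least for chia.3 of fish 2 (313 CPM against 87.6 in free RNA).

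**Figure D1:**
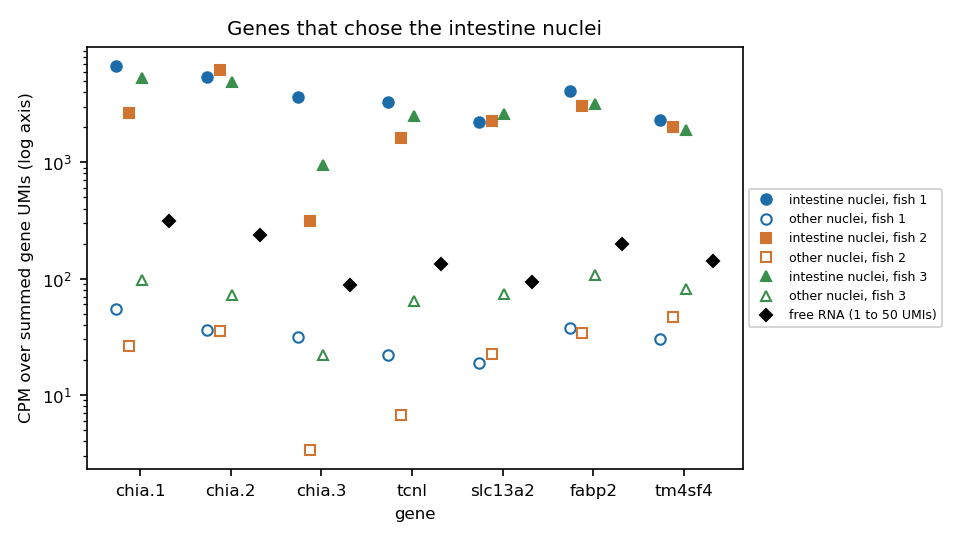
Level of each gene of the rule in CPM (log axis) by fish. Filled symbols are intestine nuclei, open symbols the other nuclei of the same fish and diamonds free RNA. chia.3 spreads from 313 CPM in fish 2 to 3624 CPM in fish 1, while slc13a2 lies between 2204 and 2587 CPM.

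Other nuclei also carried some of these transcripts. After every nucleus was thinned to 1000 UMIs, chia.2 had a UMI in 91.7% of intestine nuclei and 5.74% of other nuclei, and in 2.39% of the nuclei of a cluster marked by pmela, a pigment cell gene, that should lack it. Before thinning, the share was 97.8% in intestine nuclei (median 4027 UMIs) and 8.37% in the pmela cluster (median 2486 UMIs). For tm4sf4, the thinned shares were 80.7%, 5.68% and 1.2%. Shares in the pmela cluster were read as background.

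The label was checked against gene lists of the gut and of other tissues. Of 22 brush border genes with at least 100 UMIs, 20 were at least 4-fold higher in intestine nuclei than in other nuclei, where 9.64% of all 18513 genes tested were. Without cluster 3 it was 21 of them, beside 5.08% of all genes. Genes at least 4-fold lower were 16.1% of all genes and 14.3% without cluster 3. These shares over all genes apply to the counts of every list that follows. Since the rule chose the nuclei on this contrast, the count describes them and is not evidence. The list summed to 11608, 10363 and 11655 CPM in fish 1, 2 and 3, against 330.2 CPM in all other nuclei (32.8-fold) and 17.1-fold without cluster 3, and 756 CPM in free RNA. Against other nuclei of the same fish, the log2 ratios were 5.78, 5.07 and 4.03. vil1, the actin-bundling protein villin, was at 1105, 1021 and 1449.5 CPM. The aminopeptidase gene anpepb was at 2374, 2151 and 2293 CPM. cdh17, the liver-intestine cadherin, was at 659.9, 764 and 777 CPM. These 3 genes had similar levels in the 3 fish, and others differed more. The meprin gene mep1b was at 665, 169 and 307 CPM, and the alkaline phosphatase gene alpi.2 at 49.9, 269 and 201 CPM, so that fish 1 was highest in the former and lowest in the latter.

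Of 24 intestinal transcription factor genes, 16 were at least 4-fold higher and none at least 4-fold lower (9 and 1 without cluster 3). Their sum was 2286, 2671 and 2132 CPM in the 3 fish, against 264 CPM in other nuclei, an 8.41-fold difference that was 4.08-fold without cluster 3. Other nuclei of fish 1, 2 and 3 held 222, 202 and 741 CPM, which gave log2 ratios of 3.37, 3.73 and 1.52 within fish. The nuclear receptor gene hnf4g was at 259.8, 267 and 249.7 CPM against 10.8 CPM in other nuclei, and hnf4a at 113, 123 and 192 CPM against 18.3. cdx1b, a homeobox regulator of intestinal identity, was at 49.9, 60.6 and 72.6 CPM against 2.83 in other nuclei, and gata5 at 46.1, 64.7 and 71.3 CPM against 3.08. creb3l3a, a membrane-bound factor of lipid metabolism, was at 126, 152 and 132 CPM, and nr1h4, the bile acid receptor FXR, at 117, 205 and 154 CPM. By contrast gata4 had 6 UMIs in all 600 nuclei and foxa2 had 1.

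Of 26 nutrient transporter genes, 15 were at least 4-fold higher and none at least 4-fold lower (13 and 0 without cluster 3). The list summed to 5837, 5341 and 5281 CPM in the 3 fish, against 295, 339.8 and 1253 CPM in other nuclei of the same fish. Several of its genes, among them slc15a1a and 1 copy of slc26a6, were in the 30 with the highest ratio outside the rule. slc15a1b, the peptide carrier PEPT1, was at 1065, 739 and 763 CPM in fish 1, 2 and 3 and 7.78 CPM in other nuclei. slc6a19a.1, a carrier of neutral amino acids, was at 865, 499 and 1102 CPM against 7.49, and slc34a2a, a sodium-phosphate carrier, at 607, 279.8 and 360.5 CPM against 5.02. slc5a1, the sodium-glucose carrier, was at 1052, 622 and 966 CPM and the fructose carrier gene slc2a5 at 109, 50.1 and 53.5 CPM. Fish 2 had the lowest value of the 3 fish for slc15a1b, slc6a19a.1, slc34a2a, slc5a1 and slc2a5, though close to fish 3 for slc15a1b and slc2a5, and the highest for the slc26a6 copy (116, 146 and 93.0 CPM). For the genes of bile acid recovery the order differed. fabp6, the ileal bile acid binding protein, was at 122, 835 and 208 CPM and the bile acid carrier gene slc10a2 at 10.4 and 129 CPM in fish 1 and 2, with no UMI in fish 3. For both genes fish 2 was above the other fish, and both were close to the level of free RNA over all intestine nuclei (375 against 227 CPM for fabp6 and 36.7 against 22.3 CPM for slc10a2). The level of fish 2 rested on few nuclei. Its slc10a2 UMIs were 51 in 4 GFP-positive and 11 in 2 GFP-negative nuclei, and its fabp6 UMIs 283 in 15 and 117 in 7.

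Outside the rule genes, the lipid absorption genes formed the largest sum of the gut lists, 29743, 16893 and 18364 CPM in fish 1, 2 and 3. Of 31 genes, 21 were at least 4-fold higher and 1 at least 4-fold lower, and the counts were 18 and 5 without cluster 3. The list was 4.33-fold above all other nuclei and 1.93-fold above them without cluster 3. Against other nuclei of the same fish, its log2 ratios were 2.03, 2.11 and 1.21. Part of the list is also expressed in liver, and clusters of 1060 and 555 nuclei led by vtg2 and vtg6, egg yolk precursors made by liver, held 31716 and 32256 CPM of it. Several genes of uptake and re-esterification were further above other nuclei than the list as a whole. cd36, a fatty acid transporter, was at 1316, 622 and 540.1 CPM against 9.04 CPM in other nuclei. NPC1L1, the cholesterol carrier of the brush border, was at 339.8, 472 and 534 CPM against 5.58. mogat2, an acyltransferase of triglyceride synthesis, was at 89.4, 104 and 117 CPM against 1.48, and dgat2, which makes the last step of that synthesis, at 362, 155 and 154 CPM against 9.26. Among the export genes, mtp, which loads lipid onto apolipoprotein B, was at 233, 257 and 335 CPM. apoa4b.2 was at 773, 967 and 1303 CPM, and apoa1a at 10536, 4335 and 3294 CPM. plin2, a coat protein of lipid droplets, was at 32, 253 and 341 CPM, lower in fish 1 than in fish 2 and 3, the opposite order to apoa1a, cd36 and dgat2. apoa1b, with 898 CPM in intestine nuclei, 3365 CPM in other nuclei and 3812 CPM in free RNA, was lower in intestine nuclei.

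Among the 30 genes outside the rule with the highest ratio, several encode digestive enzymes at the cell surface. The alkaline sphingomyelinase gene enpp7.1 was at 540.3, 1132 and 665 CPM, 105-fold above other nuclei and 46.3-fold without cluster 3. tmprss15, the enteropeptidase that activates trypsinogen, was at 234, 39.7 and 101 CPM, and a gene annotated as LCT (1 of many), a lactase homolog, at 317, 33.4 and 40.8 CPM. aoc1, the diamine oxidase, was at 345, 236 and 334 CPM. The apolipoprotein gene apoea was at 4586, 2251 and 2309 CPM, and aqp8a.2, a water channel, at 234, 148 and 139 CPM. The LCT homolog, clca1 (446, 27.1 and 34.4 CPM) and tmprss15 were each highest in fish 1. The 10 genes of the lowest ratio were unnamed except lsm14b, at 4.18 CPM against 203 CPM, and h1m, a maternal linker histone, at 65.3 CPM in intestine nuclei and 2884 CPM in other nuclei, 44.1-fold lower and 10.8-fold lower without cluster 3.

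Of 15 genes of xenobiotic and bile acid metabolism, 10 were at least 4-fold higher and none lower (9 and 1 without cluster 3). cyp3a65, a cytochrome P450 of drug metabolism, was at 667, 100.2 and 220.4 CPM in fish 1, 2 and 3, and abcc2, an exporter of conjugated compounds, at 218, 106 and 204 CPM. Of 16 epithelial junction genes, 6 were at least 4-fold higher and 2 at least 4-fold lower, and without cluster 3 the counts were 3 and 3. cldn15la, an intestinal claudin, was at 582, 1038 and 1006 CPM, against 27.4 CPM in other nuclei. epcam, at 70.8 CPM in intestine nuclei and 1028 CPM in all other nuclei, was among those lower. Without cluster 3 the whole list summed to 964 CPM in other nuclei, so their epcam level was lower without it.

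Markers of the rarer gut cells were mostly sparse. Over all genes tested, 9.64% were at least 4-fold higher and 16.1% lower (5.08% and 14.3% without cluster 3). Of 18 enteroendocrine genes tested, 3 were at least 4-fold higher and none lower, and without cluster 3 none of 15 was higher and 3 were lower. Counts this small lie near those shares and are not read as a result about the list. neurod1, a factor of enteroendocrine precursors, had no UMI in intestine nuclei, where 3 UMIs would be 0.966 CPM, and the peptide hormone gene pyyb was at 21.2 CPM. Of 9 goblet genes, 3 were at least 4-fold higher and 2 without cluster 3. Among the 3 was clca1, with 646 of the list's 1692 UMIs and 27.7-fold above other nuclei without cluster 3. Another was agr2, a disulfide isomerase needed for mucin folding, 2.2-fold above other nuclei without cluster 3, at 81.9, 205 and 276 CPM. The mucin gene muc2.2 had 3 UMIs. Against other nuclei of the same fish, the goblet sum had log2 ratios of 2.40, 1.49 and 0.03, so fish 3 showed almost no difference. Of 14 genes of lysosome-rich enterocytes, 2 were at least 4-fold higher, tmprss15 among them, and 2 at least 4-fold lower, near the shares of all genes. Without cluster 3 the counts of these genes were 1 and 5. Their endocytic receptors were at the level of other nuclei or below, with cubn at 6.76 CPM against 19 and lrp2b at 8.37 CPM against 18.4. Genes of division summed to less than in all other nuclei, 427 CPM against 1996 CPM. Of 15 such genes, 2 were at least 4-fold higher and 7 at least 4-fold lower, and 0 and 3 without cluster 3. pcna was at 39.5, 119 and 119.7 CPM and mki67 at 12.2, 41.8 and 52.2 CPM in fish 1, 2 and 3. Fish 1 was lowest in both, and without cluster 3 the other nuclei were at 82.3 and 43.3 CPM, close to the 81.4 and 31.5 CPM of all intestine nuclei.

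**Figure D2:**
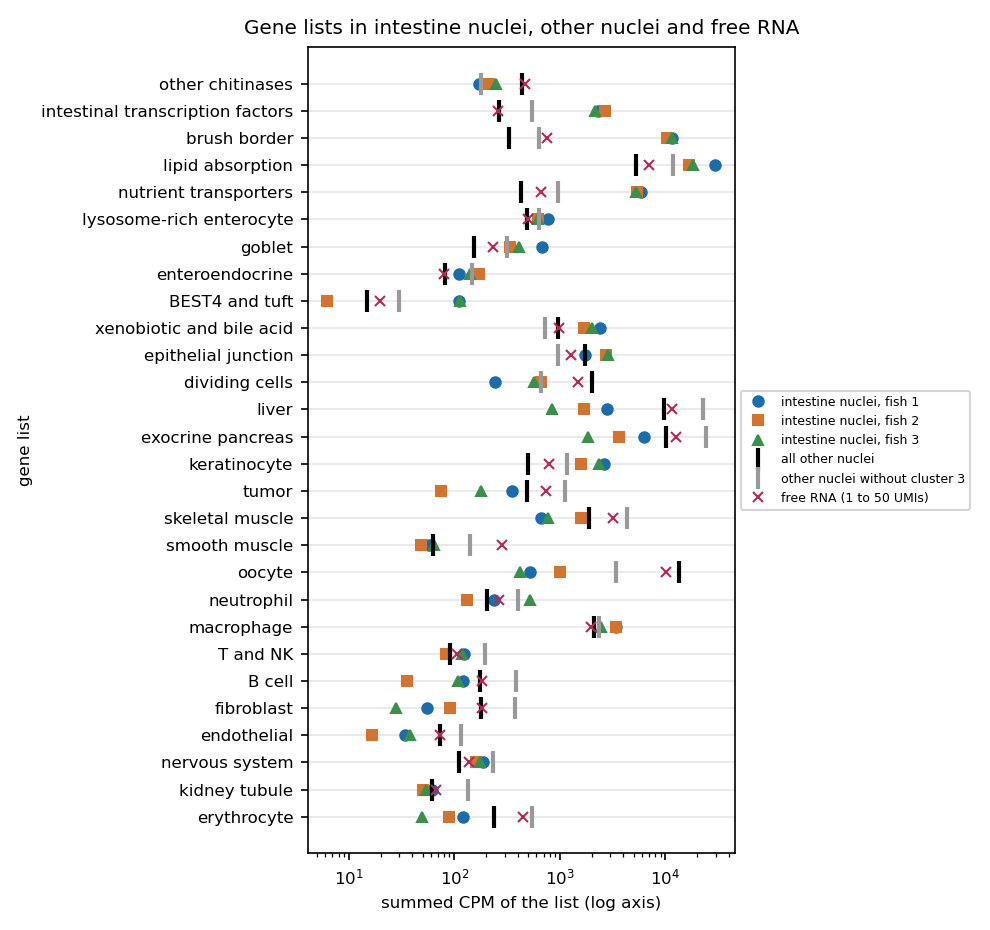
Summed level of each gene list in CPM (log axis), with symbols for intestine nuclei of fish 1, 2 and 3, black bars for all other nuclei, grey bars for other nuclei without cluster 3, and crosses for free RNA. Brush border, transcription factor and nutrient transporter sums of all 3 fish lie to the right of every comparison, while liver and exocrine pancreas sums lie to the left.

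Transcripts of liver, exocrine pancreas, tumor, skeletal muscle and oocytes were present at lower levels than in free RNA. Liver genes summed to 2701 CPM in intestine nuclei, 9767 CPM in other nuclei and 11596 CPM in free RNA, and none of 18 was at least 4-fold higher. Exocrine pancreas genes summed to 6325, 3667 and 1847 CPM in the 3 fish, against 12670.3 CPM in free RNA. The tumor list was at 326 CPM against 738 in free RNA. Of 11 keratinocyte genes, krt4, krt92 and ppl were at least 4-fold higher and none lower, and without cluster 3 the counts were 2 and 6, with ppl at 2.92-fold. Of these, krt4 was at 1269.9, 699.5 and 1162 CPM, while tp63, the defining factor of basal keratinocytes, was at 8.05 CPM and below the 26.7 CPM of other nuclei. Macrophage genes summed to 3031 CPM, above the 1974 CPM of free RNA, and 2 of 18 were at least 4-fold higher, namely cd74a and cd74b, which encode the invariant chain of MHC class II, at 1547 and 738 CPM. That count lies near the 9.64% of all genes tested. Without cluster 3 no macrophage gene was at least 4-fold higher and 3 were at least 4-fold lower, with cd74a and cd74b at 2.46-fold and 2.42-fold. By contrast, mpeg1.1, a macrophage pore-forming protein, was at 40.6 CPM and csf1ra at 7.40 CPM. Thinned to 1000 UMIs, krt4 had a UMI in 54.3% of intestine nuclei and 3.83% of the pmela cluster, and cd74a in 72.0% and 7.89%.

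Clustering of all nuclei with the 7 rule genes left out showed whether the intestine nuclei shared other transcripts. It gave 30 clusters, and cluster 13 held 363 of the 600 (60.5%), which were 87.9% of its 413 nuclei. Cluster 10, of 498 nuclei led by a gene known only as CABZ01112049.1 and by agr2, held another 174. Of the rest, 26 lay in cluster 17, led by lymphoid genes such as rorc and tox2, and 18 in cluster 23, led by ptprc, the pan-leukocyte phosphatase CD45. Gut lists were higher in cluster 13 (brush border 13013 CPM, transcription factors 3057 CPM) than in cluster 10 (4339 and 1009 CPM). In cluster 10 oocyte genes were at 6338 CPM and exocrine pancreas genes at 6821 CPM, below the 10142 and 12670.3 CPM of free RNA. At a lower resolution or with 30 principal components, the cluster that held most took 90.8% and 86.8%. These clusters were larger, 875 and 632 nuclei, and intestine nuclei made up 62.3% and 82.4% of them.

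Clustered among themselves, the intestine nuclei fell into 10 subclusters, described by their leading genes and not tested, since the same nuclei defined them. Subcluster 1 (106 nuclei) was led by abca1b, a cholesterol exporter, asah2, a neutral ceramidase, mxg, pdk2a and clca1. It held 68 nuclei of fish 1, 10 of fish 2 and 14 of fish 3. cd36 was at 1847 CPM in it, dgat2 at 749 CPM and slc15a1b at 1806 CPM. Subcluster 3 (82 nuclei, 27, 10 and 38 of fish 1, 2 and 3) was led by 2 genes without a name, loxl3b, lrp8 and noxa1, and also carried il1b, an inflammatory cytokine, at 148 CPM and the AP-1 gene fosl1a at 192 CPM, against 22.1 and 32.9 CPM in the other intestine nuclei. In subcluster 3, il1b had a UMI in 24.4% of nuclei, fosl1a in 32.9% and loxl3b in 23.2%. plin2 was at 541 CPM in it and apoa4b.2 at 1661 CPM. Subcluster 5 (62 nuclei, 40 of them of fish 1) was led by nr0b2a, a corepressor induced by bile acids, pcxb, rtn4b, cygb1 and cldn15a. chia.1 was at 9030.2 CPM and chia.3 at 3608 CPM there.

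Subcluster 4 (68 nuclei) was led by ntn1a, a guidance cue, cnnm2b, a magnesium transporter, slc10a2 and NAALADL1, a peptidase homolog. It held 6 nuclei of fish 1, 30 of fish 2 and 24 of fish 3. In it fabp6 was at 1769.5 CPM against 261 CPM in the other intestine nuclei and slc6a19b, an amino acid carrier, at 2082 CPM against 394. fabp6 had a UMI in 23.5% of its nuclei and slc10a2 in 5.88%, so that the 50 slc10a2 UMIs came from few nuclei. Across fish and sort fractions, fabp6 had a UMI in 9.23% to 30.0% of singly tagged intestine nuclei. Its detection in subcluster 4 thus lay within that range, and its level there rested on a minority of nuclei. Within the rule genes, subcluster 4 was high in chia.2 (9689.6 CPM) and low in chia.1 (2676 CPM), chia.3 (539 CPM) and tcnl (419 CPM). Fish 2, which had the lowest chia.3 and the highest fabp6, gave 30 of its 85 nuclei to it, against 6 of 227 in fish 1.

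A separate cluster of 73 nuclei, cluster 28, held no intestine nucleus by the rule and yet carried gut genes. Its brush border sum was 11920 CPM, its transcription factor sum 4238 CPM and its nutrient transporter sum 20147 CPM. It was led by lrp2b (3795 CPM) and cubn (3309 CPM), receptors of protein endocytosis, and carried ctsl.1, a cathepsin, at 5824 CPM, fabp6 at 13889 CPM and slc10a2 at 1840.3 CPM. Of the 14 genes of lysosome-rich enterocytes, 13 had at least 3 UMIs, and the list summed to 14384 CPM against 678 CPM in intestine nuclei, so the cluster was lysosome-rich enterocyte-like. chia.1 was at 12 CPM and chia.2 at 18.0 CPM in it, below the 314 and 239 CPM of free RNA, while slc13a2 was at 1397 CPM. Its lipid absorption sum was 2554 CPM. The rule thus left out nuclei with gut genes and little chitinase, and the intestine nuclei described here are not all those of the gut.

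Subcluster 10 had 9 nuclei. otop2, a proton channel, was at 3788 CPM against 13.7 CPM in the other intestine nuclei, and was detected in all of them, as were the carbonic anhydrase genes ca2 and ca4b. cftr, the chloride channel, was at 1305 CPM, tacr2 at 446 CPM and best4 at 127 CPM, where 3 UMIs would be 95.5 CPM. The BEST4 and tuft list held 178 UMIs in this subcluster, 119 of them of otop2. best4 itself thus rested on few UMIs. With 4 genes of the list at 3 or more UMIs, the subcluster was BEST4-like. tcnl reached 12955 CPM in it. These 9 nuclei came from fish 1 (5) and fish 3 (3), with 1 not assigned. Subcluster 6 (58 nuclei) was led by rgs3b, diaph3, cart3, ptgdsb.1 (a UMI in 5.17% of nuclei) and doc2b. It had the highest sum of division genes, 1048 CPM, with pcna at 232 CPM and mki67 at 125 CPM, high tcnl (8587 CPM) and low fabp2 (800 CPM) and cd36 (104 CPM). Subcluster 9 (36 nuclei) was led by CABZ01112049.1 (3526 CPM against 140.3) and agr2 (1374 CPM against 85.6), and had the lowest transcription factor sum, 813 CPM. Its mitochondrial share, 3.14%, was the highest of the subclusters.

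**Figure D3:**
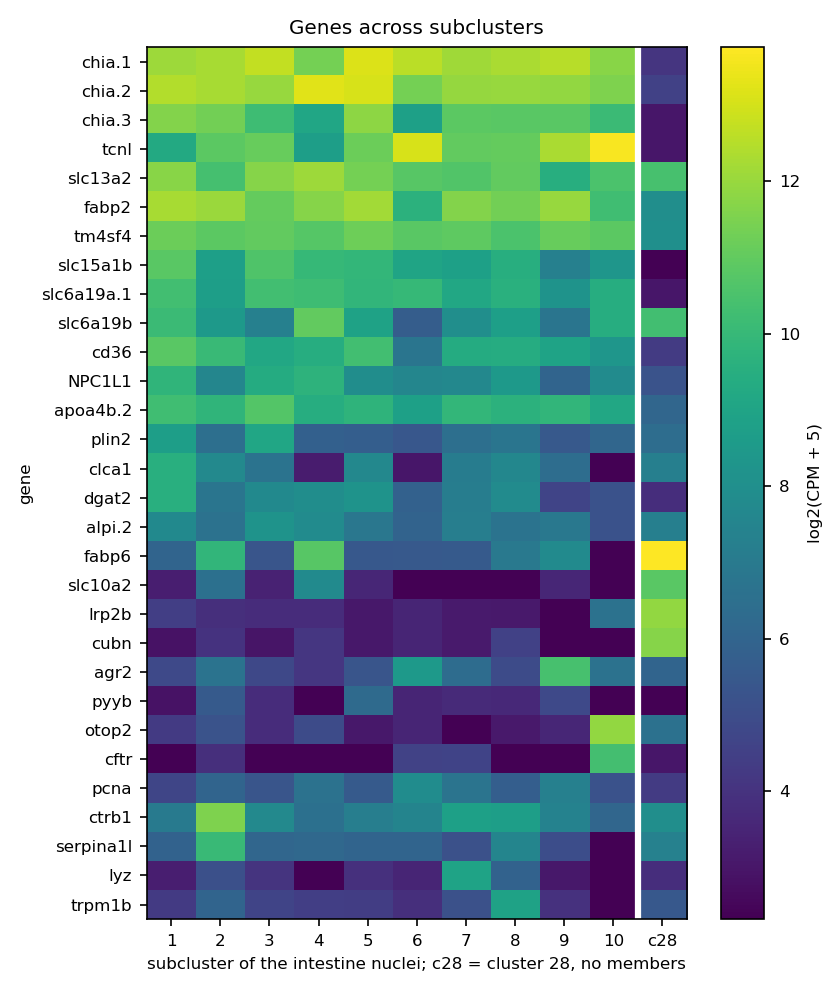
Level of selected genes, as log2 of CPM plus 5, in the 10 subclusters of intestine nuclei and in cluster 28, which the rule left out. fabp6 and slc10a2 are high in subcluster 4 and in cluster 28, otop2 and cftr in subcluster 10, and agr2 in subclusters 6 and 9.

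Subclusters 2, 7 and 8 carried genes of other tissues. Subcluster 2 (88 nuclei) had an exocrine pancreas sum of 17058 CPM, above the 12670.3 CPM of free RNA. Its liver sum of 10045 CPM was below the 11596 CPM of free RNA. Its leading genes were si:dkey-53i3.1 (a UMI in 5.68% of nuclei), CABZ01042594.1, serpina1, vtg2 and apom. ptprc was in 92.3% of the 52 nuclei of subcluster 7. Its other leading genes, rorc, lyz, hdac9b and btbd11b, were found in fewer of these nuclei, from 9.62% for lyz to 36.5% for btbd11b. Subcluster 8 (39 nuclei) was led by unnamed genes, pax3a and igsf11 of the pigment lineage and neto1l, with a tumor list sum of 1614 CPM. Several hashtags were present in 26.1%, 25% and 59.0% of these subclusters, against 15.7% of all intestine nuclei and 13.6% of other nuclei. Scrublet called 3 doublets among all nuclei (0.0267%), too few to have worked, and 0 intestine nuclei. Of the 6% of nuclei with the highest scrublet scores, 46 were intestine nuclei, 25 of them in subcluster 2 and 15 in subcluster 8. The part of doublets or free RNA in these subclusters was not tested. All 3 kept rule genes at 1.91 to 2.16% of UMIs.

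The hashtags also gave the sort fraction, which the rule did not use. Of the 471 singly tagged intestine nuclei, 300 (63.7%) bore a GFP-positive tag. By fish the share was 71.4% (65.0 to 77.2), 58.8% (47.6 to 69.4) and 55.3% (47.3 to 63.2), with an SD of 8.43 percentage points over n = 3 fish. Among other nuclei it was 55.3%, 56.0% and 25.1%. Intestine nuclei were thus above other nuclei beyond counting error in fish 1 and 3, and not in fish 2, whose interval held the value of the other nuclei. No test over the 3 fish was made.

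**Figure D4:**
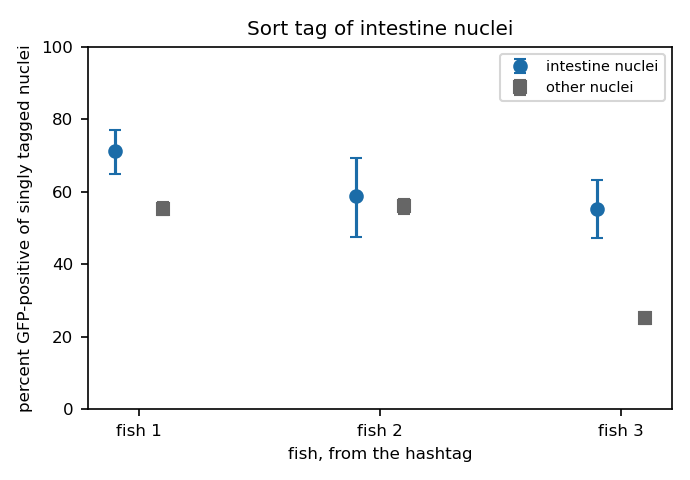
Percent of singly tagged nuclei with a GFP-positive tag in each fish, for intestine nuclei (circles) and other nuclei (squares), with exact 95% intervals. Intestine nuclei lie at 71.4, 58.8 and 55.3%, and other nuclei at 55.3, 56.0 and 25.1%.

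EGFP transcripts were rare in both fractions of intestine nuclei. In fish 1 they were found in 19 of 162 GFP-positive and 2 of 65 GFP-negative nuclei, in fish 2 in 3 of 50 and 0 of 35 (which allows up to 8.57% of nuclei with a UMI), and in fish 3 in 2 of 88 and 4 of 71. The BRAF transgene was at 219.9 and 134 CPM in the positive and negative fractions of fish 1, 31.4 and 46.8 CPM in fish 2, and 90.0 and 58.4 CPM in fish 3. In other nuclei it was at 255 and 832, 15.8 and 75.6, and 202 and 213 CPM. Only in the positive fraction of fish 2 were intestine nuclei higher. Among intestine nuclei, neither transcript was higher in the same fraction of all 3 fish. With the fish as a block in the test described next, BRAFhuman rose by 0.87 on the log2 scale in the GFP-positive fraction, and it was not called without the block.

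Summed counts of the GFP-positive and GFP-negative tagged intestine nuclei (162 and 65 nuclei in fish 1, 50 and 35 in fish 2, 88 and 71 in fish 3) were compared with edgeR's quasi-likelihood test. Of 4872 genes tested, 172 rose in the GFP-positive fraction and 3 fell at an adjusted p under 0.05 (3.53% and 0.0616% of genes). With the fish as a block, which suits fractions of the same animals, 636 rose and 228 fell (13.1% and 4.68%), and these included all 175 genes of the first fit. Many of the genes that rose were of 3 kinds. All 13 exocrine pancreas genes tested rose in both fits. The protease gene prss59.1 was at 1127, 850 and 399 CPM in the positive fractions of fish 1, 2 and 3 and 144, 140 and 110 CPM in the negative fractions, without overlap (log2 difference 3.0 ± 0.43 SE, adjusted p = 0.0388 by edgeR). Of 84 ribosomal protein genes, 67 rose (83 with the block, median log2 difference 1.15), and of 10 mitochondrial genes, 9 rose (10 with the block, median 1.65). The last 2 lists were chosen after their values had been seen. Subclusters were split unevenly between the fractions, and 52 of the 60 singly tagged nuclei of subcluster 2, the one rich in exocrine pancreas transcripts, were GFP-positive. Without subclusters 2, 7 and 8, in fits added after the data had been seen, 131 genes rose and 1 fell (476 and 132 with the block). None of the 6 exocrine pancreas genes then tested was called, at a median log2 difference of 0.73, and 1 rose with the block, while 76 of 84 ribosomal protein genes and 8 of 10 mitochondrial genes rose. Subcluster 2 held 10868 of the 13893 exocrine pancreas UMIs of intestine nuclei, so fewer pancreas genes tested and called without it were fixed in advance. Its part in the difference between fractions was not tested.

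Among genes outside these kinds, the largest change was that of CABZ01112049.1, the leading gene of subcluster 9, at 319, 1201 and 747 CPM in the positive fractions and 56.7, 23.4 and 69.4 CPM in the negative ones (4.12 ± 0.50 SE, adjusted p = 0.0238 by edgeR). Subcluster 9 held 1024 UMIs of it, found in 50.0% of its 36 nuclei, and 25 of its 26 singly tagged nuclei were GFP-positive. The part of this split in the change was not tested. CABZ01080550.1, also of subcluster 9, and cuzd1.1 rose too, by 3.14 ± 0.60 and 3.02 ± 0.51. The other genes of largest rise were pancreatic enzymes, namely 1 homolog of the elastase CELA1, cpa5, ela2, ctrb1, ela2l and cel.2, by 2.69 to 3.25 on the log2 scale. The 3 genes that fell were ttn.2, the muscle spring titin (-2.33 ± 0.50), si:ch73-330k17.3 (-2.29 ± 0.50) and zbtb16a, a zinc finger factor (-1.08 ± 0.25). zbtb16a was at 440, 588 and 491 CPM in the positive fractions and 1073, 1723 and 1286 CPM in the negative ones.

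Without the block, few genes of the gut lists were called, where 3.53% of all genes tested rose and 0.0616% fell. None of the 15 transcription factor genes tested, 20 brush border genes or 18 nutrient transporter genes was called. In lists of this size, no call lies near the share of all genes. Of 23 lipid absorption genes 2 rose, fabp1b.1 by 1.4 (adjusted p = 0.0388 by edgeR) and apoa4a by 1.61 (0.0392). With the block, hnf4a, nr1h4 and a CREB3L3 homolog fell by 0.60 to 0.71 on the log2 scale, and slc6a19b and 1 slc26a6 copy by 0.70 and 1.06. It also gave 9 lipid absorption genes that rose, apoa1a by 1.22 and rbp2a, a cellular retinol binding protein, by 1.07. All 9 liver genes tested rose with the block and 2 without it. Subcluster 2 held 6400 of the 8390 liver UMIs of intestine nuclei, so fewer liver calls without it were fixed in advance. Without subclusters 2, 7 and 8, 0 of 6 liver genes and 6 of 22 lipid absorption genes rose with the block. The part of liver transcripts in the lipid absorption differences was not tested. Of 20 brush border genes, 2 rose and 1 fell with the block. Of 11 xenobiotic and bile acid genes 3 rose with it, of 4 goblet genes 2 and of 12 epithelial junction genes 1. Over all genes tested, 13.1% rose and 4.68% fell with the block. The 7 rule genes set which nuclei were taken, so their levels between the fractions were not read.

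**Figure D5:**
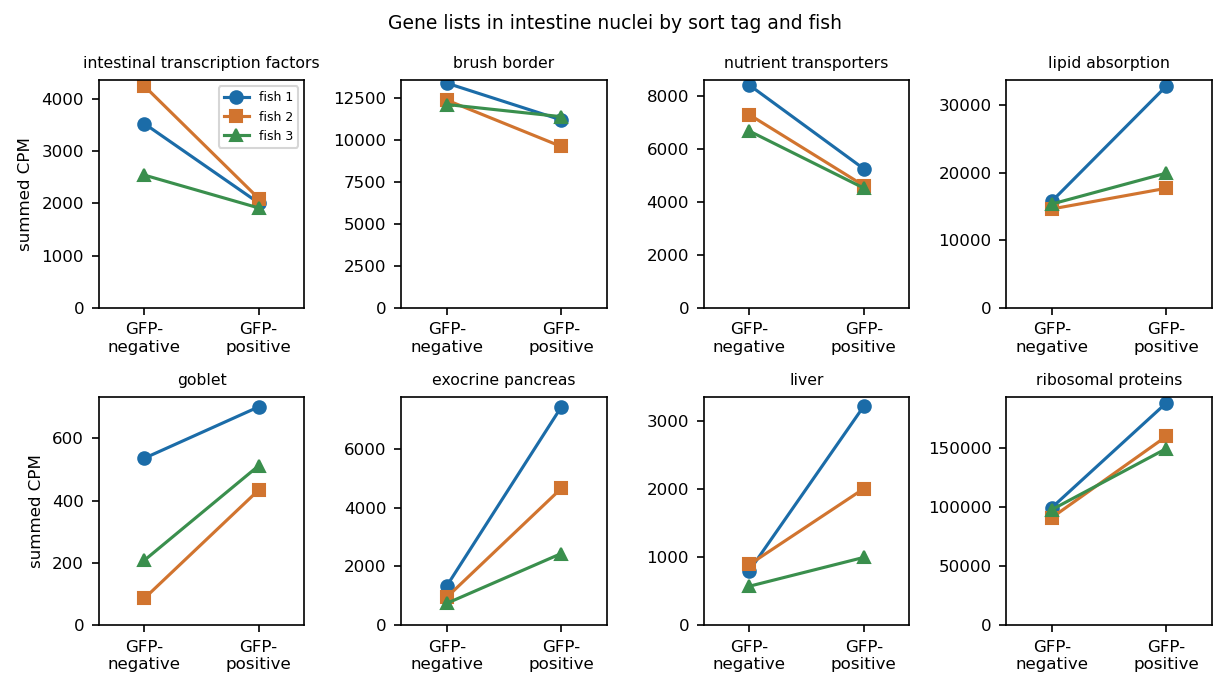
Summed CPM of gene lists in GFP-negative and GFP-positive tagged intestine nuclei, with 1 line for each fish and axes from 0. Exocrine pancreas genes go from 1341 to 7437 CPM in fish 1, 951 to 4660.4 in fish 2 and 742 to 2439 in fish 3, while transcription factor genes go from 3528 to 2008, 4248 to 2093 and 2542 to 1913.

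Depth and RNA makeup moved with the sort fraction. GFP-positive intestine nuclei had median depths of 4094, 5002 and 5297 UMIs in fish 1, 2 and 3, against 3056, 3404 and 3384 UMIs, and mitochondrial shares of 1.34, 1.21 and 1.06% against 0.369, 0.232 and 0.542%. Other nuclei of the GFP-positive fraction were also deeper (3379, 7412 and 2846 UMIs against 1940.0, 1967 and 1821) and higher in ribosomal protein genes (136224, 148743 and 113369 CPM against 88419.9, 103335 and 81258 CPM). Exocrine pancreas genes were higher there as well (9805, 7364 and 57693 CPM against 5334, 4014 and 2971 CPM). Their part in the differences among intestine nuclei was not tested. Subcluster 9 had 25 of its 26 singly tagged nuclei under the GFP-positive tags, and without it, in a fit added after the data had been seen, no gene passed the fit without the block (658 at an unadjusted p under 0.05), while 343 rose and 97 fell with the block. Median log2 differences without the block moved less than the calls. Those of exocrine pancreas, ribosomal protein and mitochondrial genes were 2.74, 0.92 and 1.49 without subcluster 9, and 2.67, 1.15 and 1.65 with it. Subcluster 4, whose transcription factor sum was 4031 CPM, had 16 of 60 singly tagged nuclei under the GFP-positive tags. Subcluster 1, with a like sum of 4072 CPM, went the other way, with 67 of 92 under them. The part of these splits in the gut list differences was not tested beyond those fits.

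Calls without the block rested on all 3 fish and on the scaling. Leaving out fish 1, 2 or 3 left 3, 0 and 0 genes (852, 552 and 659 at an unadjusted p under 0.05), against 621, 186 and 770 with the block. With library sums alone in place of TMM factors, the median of all genes moved from -0.01 to -0.41, and 13 genes rose and 5 fell. The brush border median turned from 0.14 to -0.28. The transcription factor and nutrient transporter medians stayed negative at -0.70 and -0.55 (-0.31 and -0.14 with TMM). The exocrine pancreas and ribosomal protein medians stayed positive at 2.22 and 0.74. Of the ribosomal protein genes, however, 0 of 84 were then called, against 67 with TMM. Of the exocrine pancreas genes 4 of 13 rose, and of the mitochondrial genes 4 of 10.

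In dissociated cells of 2 other melanoma samples of the series, transcripts of the 7 rule genes were nearly absent, apart from tm4sf4 in the second. The other gut lists were not read there. None of 1911 and none of 1085 cells carried 3 or more of the 7 genes, which allows shares of up to 0.157% and 0.276%. The 7 genes summed to 0.330 and 24.2 CPM, and in the second sample 317 of 347 such UMIs were tm4sf4, 87 of them in 1 cell. No barcode of an intestine nucleus recurred in either sample.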

How the data were processed

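Raw UMI counts per gene and barcode, deposited by the authors for the nuclei and for 2 samples of dissociated cells, were used as they stood. The submitters' processing notes name Cell Ranger 5.0.1 and GRCz10. Doublets were kept, since scrublet (scanpy 1.11.5) called too few. Nuclei were clustered by Leiden at resolution 1 from 15 principal components of 3000 variable genes (2000 for subclusters). CPM was taken over summed UMIs, with ratios for genes of at least 100 UMIs and sums under 3 UMIs set to 3. Sort fractions were summed per fish and tested in edgeR 4.0.16, by its quasi-likelihood F-test after TMM scaling and its default count filter, with p-values adjusted by Benjamini-Hochberg. DESeq2 1.42.0 was an alternative. Fractions of a fish come from the same animal, and their deviations correlated at 0.533, 0.36 and 0.349. The test's p-values cover the spread between 3 fish of 1 reaction.

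Genes named were rule and list genes, the 30 highest (at least 100 UMIs) and 10 lowest ratios (at least 500 UMIs in other nuclei) of 1 direction in every fish, up to 10 genes called each way with at least 50 UMIs, and the 5 leading genes of each subcluster, of which unnamed ones are mostly left out. Members and lists were chosen with earlier results of these data known. Alternatives covered membership, depth, scaling, filter, block and each fish left out. The spatial samples were not used here.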

Additional observations from a re-analysis of the deposited data

How the results depend on the processing

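The log2 ratio of all gut lists together (208 genes without the rule genes) was 2.22 in intestine nuclei over other nuclei, and it was 1.79 with every nucleus thinned to 1000 UMIs. Within fish 1, 2 and 3 it was 2.28, 2.22 and 1.63. In comparisons chosen after seeing the data it was 1.48 without cluster 3 and 1.80 with equal weight per nucleus. It lay between 2.13 and 2.3 when each fish was left out, and within 1 SD over fish (0.36) under the other alternatives, which included the top 300 and 1000 nuclei, other depth and mitochondrial limits, removal of nuclei with several hashtags and a ranking without the chitinases. Some lists changed direction. The other chitinases, at -1.08, went to 0.35 when thinned, 0.19 without cluster 3 and 0.40 with equal weight, the lysosome-rich enterocyte genes, at 0.48, to -0.11 when thinned and -0.08 with equal weight, and the enteroendocrine genes, at 0.63, to -0.36, -0.21 and -0.21, while with the top 1000 nuclei they were at 2.37. The GFP-positive share stayed within 1 SD (8.43 points), between 56.6% and 67.9% with each fish left out. The 175 genes called between sort fractions became 18 without normalisation factors, 397 without a filter on low counts (378 higher, 19 lower), 864 with the replicate block and 254 with DESeq2 (238 higher, 16 lower). Leaving out each fish gave 0 to 3 genes, and 186 to 770 (621 without fish 1) with the block. Without subcluster 9, chosen after seeing the data, 0 genes passed, and 440 with the block. Without subclusters 2, 7 and 8, 608 passed with the block. The share of intestine nuclei in 1 cluster, 60.5%, was 90.8% at resolution 0.5 and 86.8% with 30 principal components, in larger clusters of 875 and 632 nuclei. The count of 600 fixes no biological limit, since shares of the rule genes fell without a step. At 3 fish, differences between fish have no replicate.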
